A study of Mus musculus with 9 samples.

Results

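Complex I of the respiratory chain is encoded in part by nuclear genes whose symbols begin with Nduf. The members are all genes of the deposited expression table whose annotated symbol begins with Nduf. This rule by symbol was set with earlier results of these data known. The rule gave 43 of 20239 named genes, each with 1 probe set, and all 43 were among the 12597 genes that passed the filter on low values. By role, 33 encode structural subunits, of which 6 are core subunits of the hydrophilic arm, 9 are accessory subunits of that arm and 18 are accessory subunits of the membrane arm. Another 7 encode assembly factors (Ndufaf1 to Ndufaf7). Ndufa4, which is now assigned to complex IV, and its paralogue Ndufa4l2 carry the name but are not counted as complex I subunits. Ndufa11b is a transcribed pseudogene of Ndufa11, so its values are uncertain because probes could bind both transcripts. Other Nduf genes, and the subunits encoded by mitochondrial DNA, were not analysed here.

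The samples were whole hearts from male mice of the C57BL/6 strain, each hybridised to 1 of 9 Affymetrix arrays, with 3 hearts per group. Every mouse received an adeno-associated virus at 8 weeks of age, had surgery 4 weeks later, and was killed 4 weeks after surgery. The sham-luciferase group had a luciferase virus and sham surgery, the TAC-luciferase group the same virus and transaortic constriction (TAC), and the TAC-HDAC4-NT group TAC with a virus that encodes amino acids 1 to 201 of histone deacetylase 4 (HDAC4), an N-terminal fragment. The MLC promoter, a myosin light chain promoter, drove both transgenes, and no sham group with HDAC4-NT was in the design. TAC narrows the aorta and loads the left ventricle with pressure. P-values describe the spread between these 3 animals per group.

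Complex I takes electrons from NADH, passes them through a flavin and a chain of iron-sulphur clusters in its hydrophilic arm to ubiquinone, and pumps protons through its membrane arm. The core subunits do the catalysis, the accessory subunits surround and stabilise them, and the assembly factors build the arms and leave before the enzyme is finished. Cardiac muscle is packed with mitochondria and draws most of its ATP from oxidative phosphorylation, and lower expression of respiratory genes is a known feature of the pressure-loaded failing heart.

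All values are deposited log2 expression levels, and levels of different genes are not compared because each probe set has its own brightness. Member values ran from 5.56 to 13.45, and 41 of the 43 members lay above the median of all values (5.88) on each of the 9 arrays. The 10 cardiomyocyte markers averaged between 12.96 and 13.06 on every array. Of the 6 skeletal muscle markers 3 passed the filter on low values and 0 were called in any comparison, with Actn3, a fast-fibre actinin, at 0.02 in TAC-luciferase against sham (adjusted p 0.814). The 4 atrial markers differed within each group, from 5.98 to 8.07 among the TAC-luciferase hearts, and 0 were called, with Mybphl at 0.09 (adjusted p 0.82). TAC-luciferase heart 1 correlated less with hearts 2 and 3 of its own group (Pearson's r over the tested genes 0.986 and 0.987) than with those of the HDAC4-NT group (0.991 to 0.992), while hearts 2 and 3 correlated with each other at 0.994. Those values describe the arrays, since genes are no replicates.

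The plot of all members by heart shows the sham hearts pale and most rows blue in both TAC groups. Taking the mean of the sham hearts as the reference, 39, 37 and 38 of the 43 members lay below it in TAC-luciferase hearts 1, 2 and 3. The HDAC4-NT hearts 1, 2 and 3 had 40, 36 and 42 members below it. The sham hearts themselves had 14, 23 and 24.

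**Figure D1:**
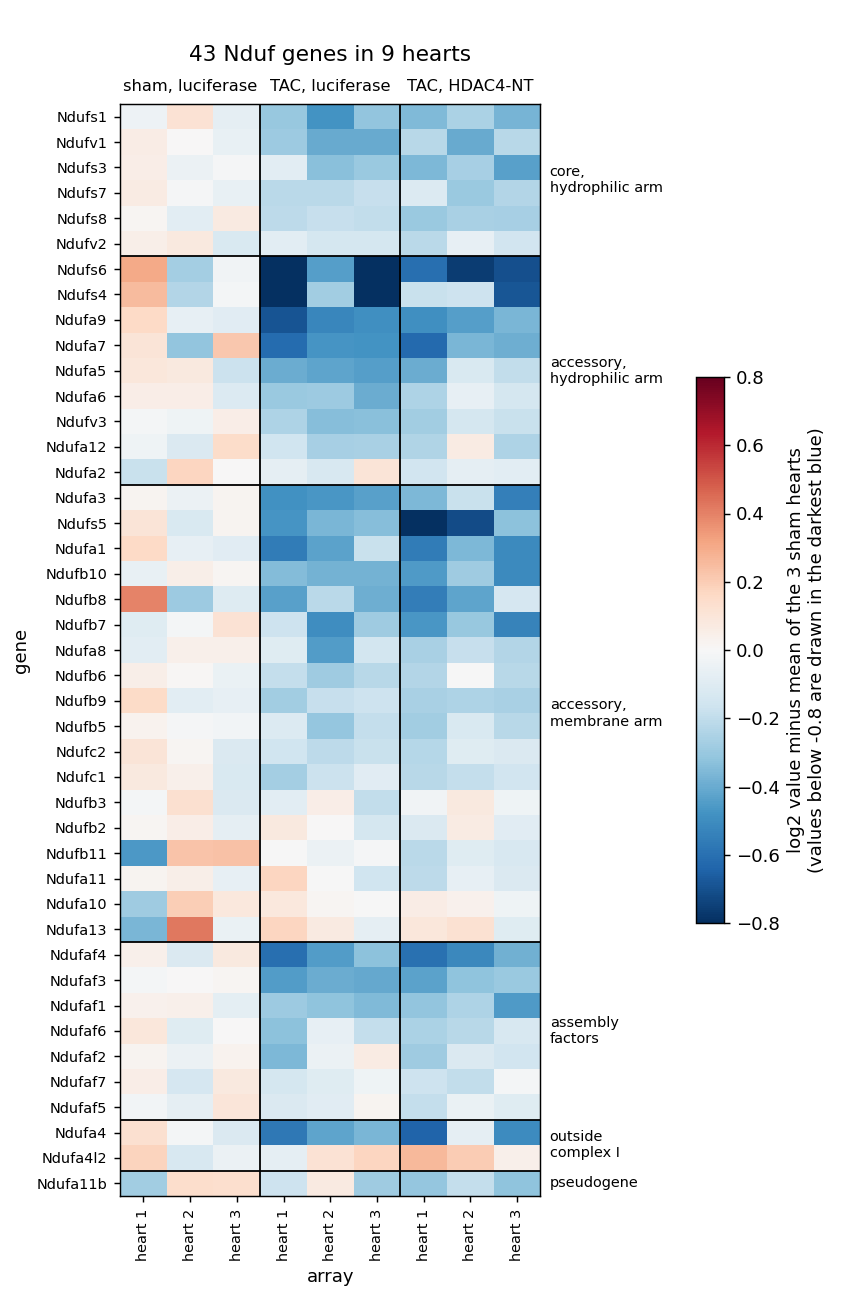
Log2 value of each of the 43 Nduf genes (vertical axis, grouped by role) in each of the 9 hearts (horizontal axis), minus the mean of the 3 sham hearts, on a colour scale in log2 units. Blue is below the sham mean, and at least 36 of the 43 members are below it in each of the 6 TAC hearts.

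The first comparison, TAC-luciferase against sham-luciferase, asks what TAC surgery did to these genes with a control transgene. Of the 43 Nduf genes, 24 fell and 0 rose (limma, Benjamini-Hochberg adjusted p under 0.05 over all 12597 genes). That is 55.8% of the members, where 14.9% of all genes tested were called lower and 11.2% were called higher. The median member changed by -0.23 log2 units (quartiles -0.38 and -0.12), which is -14.6%, and the median of all genes was -0.01. Of the 43, 39 were below 0, against 53.5% of all genes. The 2 groups did not overlap, with every TAC heart below every sham heart, for 27 members (62.8%) against 21.6% of all genes, and for 0 members every TAC heart lay above (15.9% of all genes). The size of the count moved when 1 array was left out: it was 14 without sham heart 1, 15 without TAC-luciferase heart 2 and 15 without TAC-luciferase heart 3. Without HDAC4-NT heart 1, 2 or 3, which are outside this comparison, it was 19, 22 and 21, with the median still at -0.23. Every such fit also has fewer residual degrees of freedom. The count was 15 without the filter on low values (8.95% of all genes called lower). It was 14 after cyclic loess scaling (12% of all genes), with a median of -0.18 and 36 members below 0. With TAC-luciferase hearts 2 and 3 both left out it was 8, with a median of -0.25, a fit in which the only heart of its group is assumed to vary like those of the other groups.

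The log2 differences of all members in the 3 comparisons are plotted with their 95% intervals by role. The structural subunits of the hydrophilic arm had the larger share of lower calls, 12 of 15 with a median of -0.33, and the accessory subunits of the membrane arm had 8 of 18 with a median of -0.20. The difference between the arms was not tested.

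**Figure D2:**
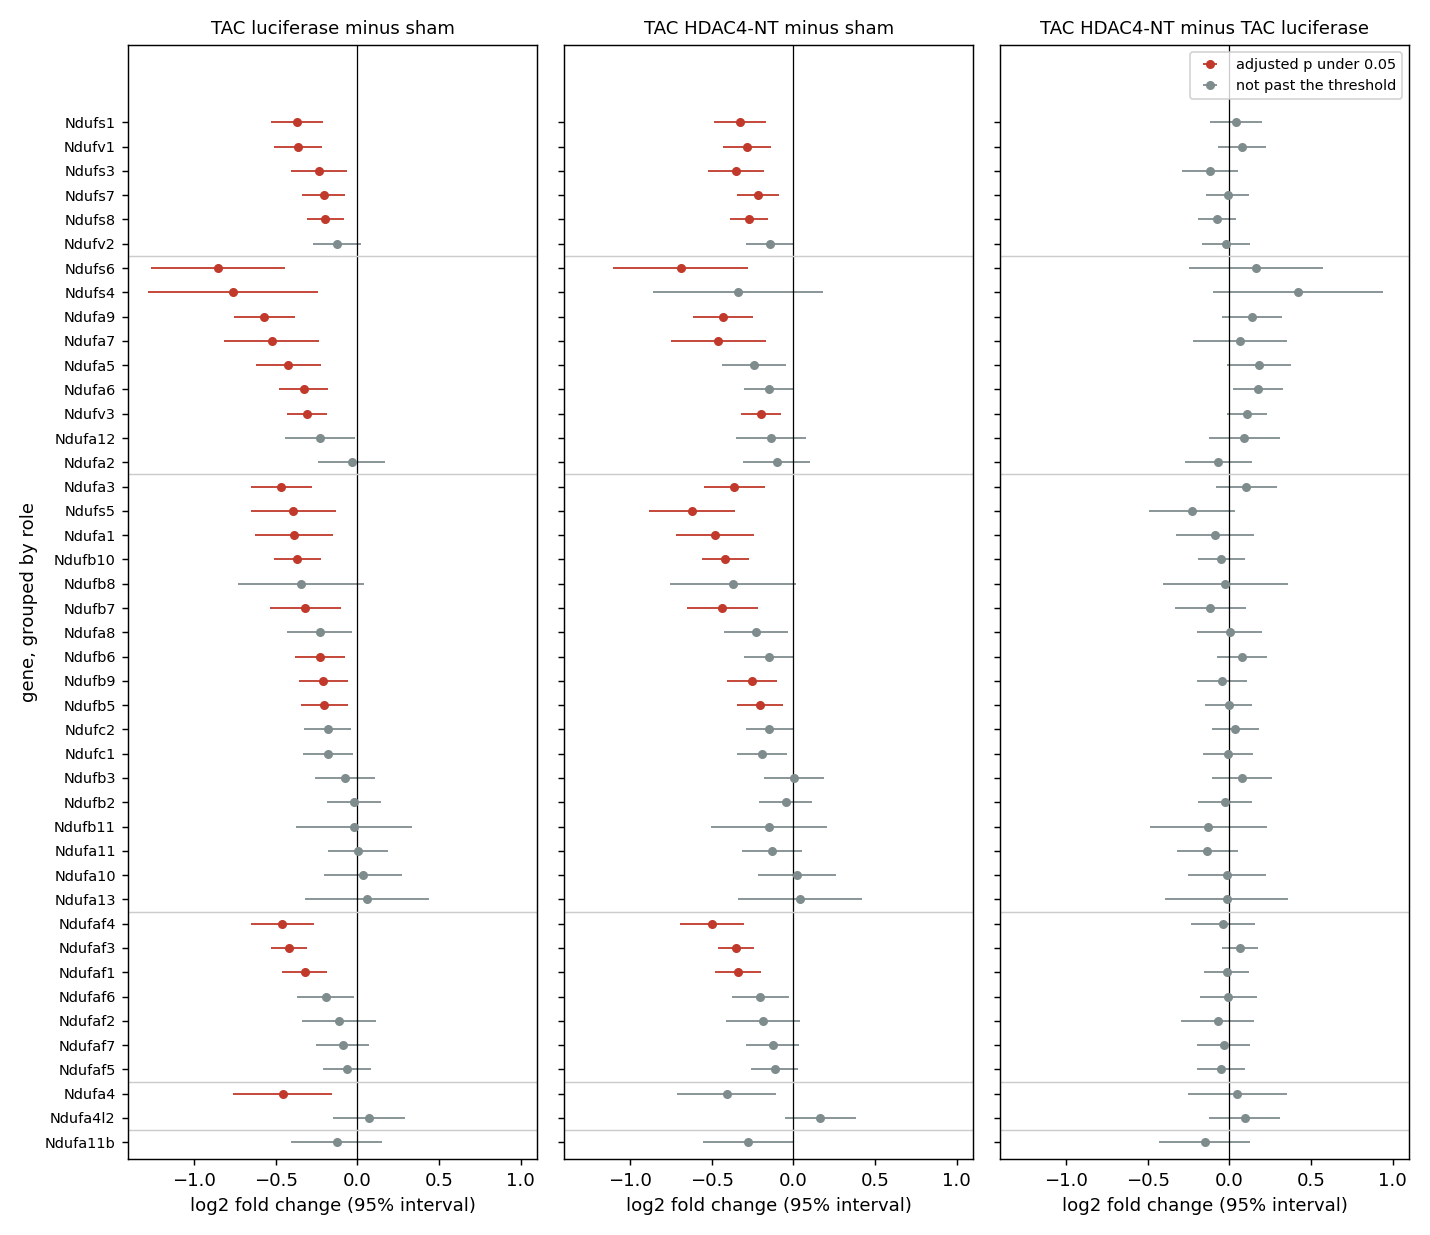
Log2 fold change (horizontal axis) with its 95% interval from the limma fit for each of the 43 Nduf genes (vertical axis, grouped by role) in the 3 comparisons, 3 hearts per group. Red points passed an adjusted p of 0.05: 24 in TAC-luciferase against sham, 19 in TAC-HDAC4-NT against sham and 0 between the 2 TAC groups.

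The promoters of several members that fell together are shown because they hold motifs of factors known for nuclear respiratory genes. RefSeq promoters (GRCm38.p6, 250 bases before to 50 bases after each start) of 37 of the 43 members and of 27025 genes in all were searched for 4 motifs on both strands. The promoters of a chromosome were left out of the search, and the shares of all genes are over these 27025. The NRF1 motif GCGCA, any base, GCGC, was in 8 of the 37 members (21.6%) and in 5.19% of all genes with a promoter. Of the 22 members with a promoter that fell, 5 held it (Ndufa5, Ndufa6, Ndufaf4, Ndufs5 and Ndufs6), and of the 15 others 3 did. The GABP motif CCGGAAG, an ETS site, was in 5 members (13.5%, against 9.93% of all genes). These 5, Ndufaf1, Ndufb6, Ndufb7, Ndufs3 and Ndufs8, were among the 22. Only Ndufaf1 of these kept its call without each array in turn. The calls of Ndufb6, Ndufb7, Ndufs3 and Ndufs8 ended for 5, 5, 8 and 3 arrays, and all after cyclic loess scaling. The YY1 motif AAGATGGCG was in 5 members (13.5%; 1.64% of all genes), namely Ndufa9, Ndufc1, Ndufs4, Ndufs6 and Ndufs7, in each case after the start. The oestrogen-related receptor motif TCAAGGTCA was in 0 of 37 (0.466% of all genes), which says only that these letters are not in these windows. Each line gives 60 bases that lie before the start, on the gene's strand, with the motif in capitals: NRF1 in Ndufs6 (chr13:73328483-73328542), Ndufs5 (chr4:123718250-123718309) and Ndufaf4 (chr4:24897945-24898004), and GABP in Ndufaf1 (chr2:119662835-119662894) and Ndufs3 (chr2:90904722-90904781).
Ndufs6: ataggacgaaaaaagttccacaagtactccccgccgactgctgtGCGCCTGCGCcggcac
Ndufs5: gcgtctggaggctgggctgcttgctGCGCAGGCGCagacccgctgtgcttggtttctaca
Ndufaf4: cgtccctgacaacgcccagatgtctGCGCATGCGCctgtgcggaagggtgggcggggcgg
Ndufaf1: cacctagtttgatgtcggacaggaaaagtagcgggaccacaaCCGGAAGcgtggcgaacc
Ndufs3: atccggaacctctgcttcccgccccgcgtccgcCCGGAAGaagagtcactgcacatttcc
The Ndufs6 match reads on the reverse strand. A match describes the letters and is not a measured binding site.

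Of the 6 core subunits of the hydrophilic arm, 5 fell after TAC in luciferase hearts, with a median of -0.22, and Ndufv2 stood at -0.12 (adjusted p 0.207). Ndufv1 holds the flavin and the site where NADH is oxidised. It lay at 12.23, 12.17 and 12.11 in the sham hearts, at 11.88, 11.77 and 11.77 in the TAC-luciferase hearts and at 11.95, 11.77 and 11.95 in the HDAC4-NT hearts. All 6 TAC hearts were below all sham hearts, and the fall in the luciferase group was 0.36 log2 units (SE 0.07, adjusted p 0.00365). Ndufs1, the largest core subunit and carrier of several iron-sulphur clusters, stood at 10.39, 10.55 and 10.36 in sham, 10.13, 9.95 and 10.12 in TAC-luciferase and 10.08, 10.18 and 10.06 in TAC-HDAC4-NT. Its groups were also fully apart from sham, with a change of -0.37 (SE 0.07, adjusted p 0.00491). Ndufs7 and Ndufs8, which hold iron-sulphur clusters on the way to ubiquinone, and Ndufs3, a core subunit without a cluster, had smaller falls, between 0.20 and 0.23 log2 units. The calls of those 3 did not hold under every alternative. Leaving out 1 array ended the call of Ndufs3 for 8 of the 9 arrays (adjusted p up to 0.158), of Ndufs7 for 5 arrays (up to 0.0924) and of Ndufs8 for 3 (up to 0.0574).

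The accessory subunits of the hydrophilic arm had the largest median change of any role, -0.42, with 7 of 9 lower. Ndufs6, a zinc-binding subunit that joins late in assembly, lay at 10.22, 9.64 and 9.89 in sham and at 8.81, 9.48 and 8.92 in TAC-luciferase. Heart 2 was the highest of the TAC-luciferase hearts and still lay below the lowest sham heart. Ndufs6 fell by 0.85 log2 units, or by 44.6% (SE 0.18, adjusted p 0.00832), the largest fall among the members. In the HDAC4-NT hearts it read 9.32, 9.16 and 9.22, close together and also below every sham heart.

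Ndufs4 is an accessory subunit next to the NADH-oxidising module, and its loss in mice gives a model of Leigh syndrome. It stood at 12.42, 11.93 and 12.15 in sham, at 10.98, 11.89 and 11.35 in TAC-luciferase and at 11.99, 12 and 11.48 in TAC-HDAC4-NT. The TAC-luciferase hearts were spread over more of the scale than those of any other member (SD 0.457), with heart 2 just under the lowest sham heart and heart 1 far below. Its change in TAC-luciferase was -0.76 (SE 0.23, adjusted p 0.0384), and the call was lost without any 1 of sham heart 1, sham heart 3, TAC-luciferase heart 1, TAC-luciferase heart 3 or HDAC4-NT heart 1, with changes from -1.0 to -0.55 and adjusted p up to 0.13. It was also lost under 6 other settings, cyclic loess scaling and the removal of the filter among them (adjusted p up to 0.101).

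Ndufa9 sits where the arms meet, close to the ubiquinone site. It lay at 11.95, 11.73 and 11.70 in sham, 11.10, 11.27 and 11.30 in TAC-luciferase and 11.30, 11.35 and 11.43 in TAC-HDAC4-NT. Both TAC groups were wholly below sham, and Ndufa9 fell by 0.57 log2 units in the luciferase group (SE 0.08, adjusted p 0.00108). Ndufa7 showed the same order, at 9.05, 8.64 and 9.17 in sham, 8.34, 8.48 and 8.47 in TAC-luciferase and 8.33, 8.59 and 8.56 in TAC-HDAC4-NT. It fell by 0.52 log2 units (SE 0.13, adjusted p 0.0155), a call lost without sham heart 1 or sham heart 3 (adjusted p up to 0.0589).

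Ndufa5 and Ndufa6 belong to the part of the hydrophilic arm that reaches ubiquinone. Ndufa5 read 8.48, 8.47 and 8.22 in sham, 7.99, 7.97 and 7.95 in TAC-luciferase and 7.99, 8.27 and 8.19 in TAC-HDAC4-NT. The TAC-luciferase hearts were nearly equal, and HDAC4-NT heart 1 was level with them, at 7.994 against 7.993 in TAC-luciferase heart 1. HDAC4-NT hearts 2 and 3 reached or came close to sham heart 3. The change in TAC-luciferase was -0.42 (SE 0.09, adjusted p 0.00715). Ndufa6, which anchors an acyl carrier protein, read 9.48, 9.48 and 9.32 in sham, 9.13, 9.13 and 9.03 in TAC-luciferase and 9.18, 9.36 and 9.28 in TAC-HDAC4-NT. It had a similar pattern, with a change of -0.33 (SE 0.07, adjusted p 0.00664). Ndufv3, a subunit of the NADH-oxidising module, lay at 9.21, 9.19 and 9.28, then 8.98, 8.89 and 8.90, then 8.95, 9.09 and 9.05 in sham, TAC-luciferase and TAC-HDAC4-NT, and fell by 0.31 log2 units (SE 0.05, adjusted p 0.0035). All 6 TAC hearts were below the sham hearts. The members of this role that did not pass were Ndufa12 at -0.23 (adjusted p 0.115) and Ndufa2 at -0.03 (adjusted p 0.837).

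Of the 18 accessory subunits of the membrane arm, 8 fell after TAC in luciferase hearts. Ndufa3, a small membrane subunit, had tight groups, at 11.74, 11.67 and 11.74 in sham and 11.23, 11.25 and 11.28 in TAC-luciferase, and read 11.36, 11.54 and 11.17 in TAC-HDAC4-NT. It fell by 0.47 log2 units (SE 0.08, adjusted p 0.00334), with no overlap with sham in either TAC group. Ndufa1, an X-linked subunit needed to build the membrane arm, read 8.42, 8.19 and 8.16 in sham, 7.70, 7.83 and 8.08 in TAC-luciferase and 7.70, 7.90 and 7.75 in TAC-HDAC4-NT. TAC-luciferase heart 3 came within reach of the sham hearts, and the change was -0.39 (SE 0.11, adjusted p 0.0248), a call lost without sham heart 1, TAC-luciferase heart 1 or TAC-luciferase heart 2 (adjusted p up to 0.088).

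Ndufs5, which lies on the intermembrane-space side, read 8.61, 8.39 and 8.54 in sham, 8.04, 8.15 and 8.17 in TAC-luciferase and 7.70, 7.80 and 8.18 in TAC-HDAC4-NT. HDAC4-NT hearts 1 and 2 were the lowest of the 9 hearts and heart 3 was level with the TAC-luciferase hearts. Its change in TAC-luciferase was -0.39 (SE 0.12, adjusted p 0.0352), lost without any 1 of sham hearts 1 and 3 and the 3 TAC-luciferase hearts (adjusted p up to 0.115). The 9 Ndufb subunits, most of which lie in the far part of the membrane arm, had 5 lower calls and a median of -0.21. Ndufb10 fell by 0.37 (adjusted p 0.00301). Ndufb7 stood at -0.32 (adjusted p 0.0382), a call that ended when sham heart 2 or 3, TAC-luciferase heart 2 or 3 or HDAC4-NT heart 1 was dropped (adjusted p up to 0.117) and under 4 other settings (up to 0.0729). Ndufb8 did not pass at -0.34 (SE 0.17, adjusted p 0.176), and stood at -0.14 without sham heart 1. The changes of Ndufb2, Ndufb11, Ndufa11, Ndufa10 and Ndufa13 lay between -0.02 and 0.06, none passed, and each turned its sign under at least 1 alternative. Sham heart 1 was far below the other sham hearts for Ndufb11, at 9.17 against 9.85 and 9.86, and below them for Ndufa10, at 12.10 against 12.58 and 12.47.

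Among the 7 Ndufaf assembly factors 3 fell, with a median of -0.19. Ndufaf3 and Ndufaf4 act together on the ubiquinone-binding part of the hydrophilic arm. Ndufaf3 lay at 8.75, 8.77 and 8.78 in sham, 8.32, 8.37 and 8.35 in TAC-luciferase and 8.34, 8.44 and 8.47 in TAC-HDAC4-NT. The groups were tight and far from sham, and its fall of 0.42 log2 units (SE 0.05) had the smallest adjusted p of the members, 0.000355. Ndufaf4 read 7.83, 7.68 and 7.87 in sham, 7.20, 7.35 and 7.47 in TAC-luciferase and 7.20, 7.28 and 7.41 in TAC-HDAC4-NT, and fell by 0.46 log2 units (SE 0.09, adjusted p 0.00435). Ndufaf1, part of the complex that assembles the membrane arm, read 9.02, 9.03 and 8.91, then 8.69, 8.66 and 8.63, then 8.67, 8.74 and 8.53 in the same 3 groups, and fell by 0.32 (SE 0.06, adjusted p 0.00499). For these 3 genes every TAC heart was below every sham heart.

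The other 4 assembly factors did not pass in this comparison, and their TAC-luciferase hearts overlapped sham. Ndufaf2, a paralogue of the subunit Ndufa12, read 6.44, 6.37 and 6.45 in sham, 6.06, 6.37 and 6.49 in TAC-luciferase and 6.13, 6.30 and 6.26 in TAC-HDAC4-NT. TAC-luciferase heart 1 alone was low in its group, and the change of -0.11 (adjusted p 0.473) became 0.01 without it. Ndufaf6 read 6.14, 5.95 and 6.05, then 5.72, 5.98 and 5.86, then 5.79, 5.82 and 5.92, a change of -0.19 in TAC-luciferase (adjusted p 0.0985). Ndufaf7, a mitochondrial methyltransferase, read 6.28, 6.09 and 6.30, then 6.08, 6.12 and 6.18, then 6.05, 6.03 and 6.20, a change of -0.09 (adjusted p 0.414). For Ndufaf7 both TAC groups overlapped sham, while for Ndufaf2 and Ndufaf6 every HDAC4-NT heart lay below every sham heart. Ndufaf5, which hydroxylates the core subunit Ndufs7, read 5.73, 5.68 and 5.85, then 5.64, 5.66 and 5.77, then 5.56, 5.70 and 5.66, a change of -0.06 (adjusted p 0.548). Its values lie near the bottom of the measured range.

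The paralogues outside complex I differed from each other. Ndufa4, a subunit of cytochrome c oxidase, lay at 11.08, 10.94 and 10.84 in sham, 10.38, 10.53 and 10.59 in TAC-luciferase and 10.31, 10.88 and 10.45 in TAC-HDAC4-NT. HDAC4-NT heart 2 alone reached the sham range. Ndufa4 fell in TAC-luciferase by 0.46 log2 units (SE 0.13, adjusted p 0.0334), a call lost without any 1 of sham hearts 1 and 2 and the 3 TAC-luciferase hearts (adjusted p up to 0.113). Ndufa4l2, known as a gene induced by hypoxia, read 6.59, 6.28 and 6.37 in sham, 6.34, 6.53 and 6.58 in TAC-luciferase and 6.67, 6.61 and 6.45 in TAC-HDAC4-NT. All 3 groups overlapped, with changes of 0.07 (adjusted p 0.665) and 0.17 (adjusted p 0.273) from sham.

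**Figure D3:**
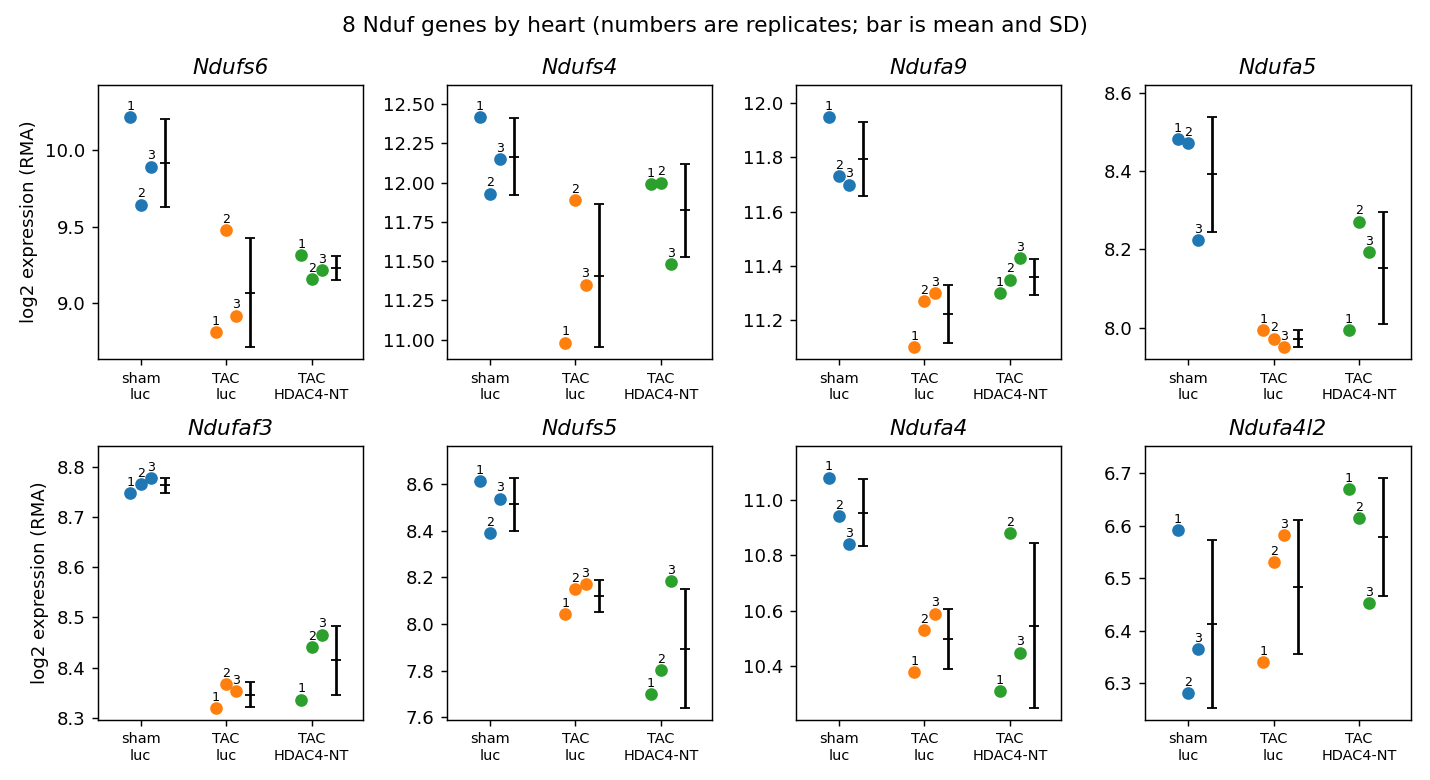
Log2 expression (vertical axis) of 8 Nduf genes in the 3 hearts of each group (points, numbered by replicate), with the mean and SD beside them (bars). Ndufs6, Ndufa9 and Ndufaf3 have all 6 TAC hearts below the 3 sham hearts, Ndufs4 is spread from 10.98 to 11.89 among the TAC-luciferase hearts, and the groups of Ndufa4l2 overlap.

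The second comparison, TAC-HDAC4-NT against sham-luciferase, combines TAC with the HDAC4 fragment, and uses the same sham hearts as the first. Of the 43 members, 19 fell and 0 rose. That is 44.2% of the members, where 12.3% of all genes were called lower and 10.5% higher. With 1 array left out the count of lower members ran from 13 without HDAC4-NT heart 3 to 20 without TAC-luciferase heart 2, and it was 14 without HDAC4-NT heart 1. It was 16 without the filter on low values (7.41% of all genes called lower). After cyclic loess scaling it was also 16 (10.6% of all genes), with a median of -0.19. With the filter and the deposited values the median member changed by -0.23, against -0.01 for all genes. There 39 of 43 members were below 0, against 53.7% of all genes. The groups did not overlap, with every TAC-HDAC4-NT heart lower, for 23 members (53.5%), against 21.5% of all genes, and 0 members had every such heart higher (18.3% of all genes).

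By role, 5 of 6 core subunits fell (median -0.28), 4 of 9 accessory subunits of the hydrophilic arm (median -0.24), 7 of 18 of the membrane arm (median -0.20) and 3 of 7 Ndufaf genes (median -0.20). The largest falls were those of Ndufs6, by 0.69 log2 units (SE 0.18, adjusted p 0.0236), and Ndufs5, by 0.62 (SE 0.12, adjusted p 0.00476). Ndufaf4 fell by 0.50 (SE 0.09, adjusted p 0.00316) and Ndufa1 by 0.48 (SE 0.11, adjusted p 0.0109). These 4 genes had every HDAC4-NT heart below every sham heart. The call of Ndufs6 was lost without any 1 of sham hearts 1 and 3 and the 3 HDAC4-NT hearts (adjusted p up to 0.0793).

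Some members called in the first comparison did not pass in the second. Ndufs4 stood at -0.34 (SE 0.23, adjusted p 0.351), Ndufa4 at -0.41 (SE 0.13, adjusted p 0.0574), Ndufa5 at -0.24 (SE 0.09, adjusted p 0.0817), Ndufa6 at -0.15 (SE 0.07, adjusted p 0.147) and Ndufb6 at -0.15 (SE 0.07, adjusted p 0.16). All of them were still below 0, and whether they differ between the TAC groups is the third comparison.

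The third comparison, TAC-HDAC4-NT against TAC-luciferase, holds the surgery constant and asks about the transgene. No Nduf gene was called, 0 of 43, where limma called 0.254% of all genes (32 of 12597), and each alternative run also called 0 members. At an unadjusted p under 0.05 there was 1 member (2.33%), Ndufa6, against 14.3% of all genes. The median member differed by -0.01, against 0.00 for all genes, and 25 of 43 members were below 0, against 47.9% of all genes. Every HDAC4-NT heart was above every TAC-luciferase heart for 2 members, Ndufa5 and Ndufa6 (11.6% of all genes), and below for Ndufb11 and Ndufs8 (8.8% of all genes). For Ndufa5 the nearest hearts of the 2 groups were almost tied, at 7.994 and 7.993.

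The 4 members with the smallest p were Ndufa6, 0.18 higher (SE 0.07, p 0.0265, adjusted p 0.271), Ndufa5, 0.18 higher (SE 0.09, adjusted p 0.39), Ndufv3, 0.11 higher (SE 0.05, adjusted p 0.415), and Ndufs5 at -0.23 (SE 0.12, adjusted p 0.417). The first 3 are accessory subunits of the hydrophilic arm, where 8 of 9 members were above 0 with a median of 0.14, and none passed. The widest difference was that of Ndufs4, at 0.42 (SE 0.23, adjusted p 0.463), with a 95% interval from -0.10 to 0.94, and it ran from 0.21 without TAC-luciferase heart 1 to 0.66 without TAC-luciferase heart 2. Apart from Ndufs4, the interval of no member reached above 0.57 (Ndufs6), and the lowest bound of any member was -0.49 (Ndufs5). A missed threshold does not show that the 2 groups were alike: these intervals are the size of difference the 3 hearts per group leave possible. Of the 43 differences, 21 turned their sign under at least 1 alternative. The count over all genes moved with single arrays: 697 genes were called when TAC-luciferase heart 1 was dropped, 4 when heart 2 of that group was, 6 and 7 when sham hearts 2 and 3 were, and 1 when HDAC4-NT heart 1 or heart 2 was, with 0 members called each time.

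Genes that work with complex I were read from lists beside the members. Of 10 other complex I assembly factors 4 fell after TAC in luciferase hearts (median -0.20) and 6 in HDAC4-NT hearts (median -0.25). Tmem126b, which works with Ndufaf1 on the membrane arm, read 7.26, 7.07 and 7.22 in sham, 6.63, 6.70 and 6.69 in TAC-luciferase and 6.73, 6.66 and 6.82 in TAC-HDAC4-NT. It fell by 0.51 (SE 0.06, adjusted p 0.000491) and by 0.45 (SE 0.06, adjusted p 0.00106), with both TAC groups far below sham. Acad9 and Ecsit, partners in the same assembly complex, fell by 0.30 and 0.36 in TAC-luciferase and by 0.25 and 0.37 in TAC-HDAC4-NT. Dmac2, a factor of membrane arm assembly, fell by 0.37 (adjusted p 0.00303) and 0.43 (adjusted p 0.00145).

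The other respiratory complexes are shown in the plot of gene lists. In TAC-luciferase hearts all 4 complex II genes fell (median -0.35), led by Sdha, the catalytic subunit, at -0.43 (adjusted p 0.00286) and Sdhc at -0.39 (adjusted p 0.00299). Complex III had 3 of 7 lower (Uqcrc1 at -0.28, adjusted p 0.00269; Uqcrfs1 at -0.32, adjusted p 0.00575) and complex IV 5 of 10 (Cox4i1 at -0.28, adjusted p 0.00239; Cox8b at -0.24, adjusted p 0.0109). Complex V, the ATP synthase, had 2 of 10 lower, Atp5c1 at -0.34 (adjusted p 0.00275) and Atp5e at -0.43 (adjusted p 0.0365), and the call of Atp5e ended for 5 of the 9 arrays when each was dropped in turn (adjusted p up to 0.119) and under 4 other settings (up to 0.0755). That of Cox8b was lost after cyclic loess scaling (0.0517). Over complexes II to V this was 14 of 31 genes with a median of -0.21, where the Nduf genes had 24 of 43 and -0.23. Of all genes tested, 14.9% were called lower there, and complex V with 2 of 10 was near that share. In HDAC4-NT hearts the count over complexes II to V was also 14 of 31, with a median of -0.20. There 12.3% of all genes were called lower. No test compared the complexes, and 0 genes of complexes II to V rose in either TAC group.

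**Figure D4:**
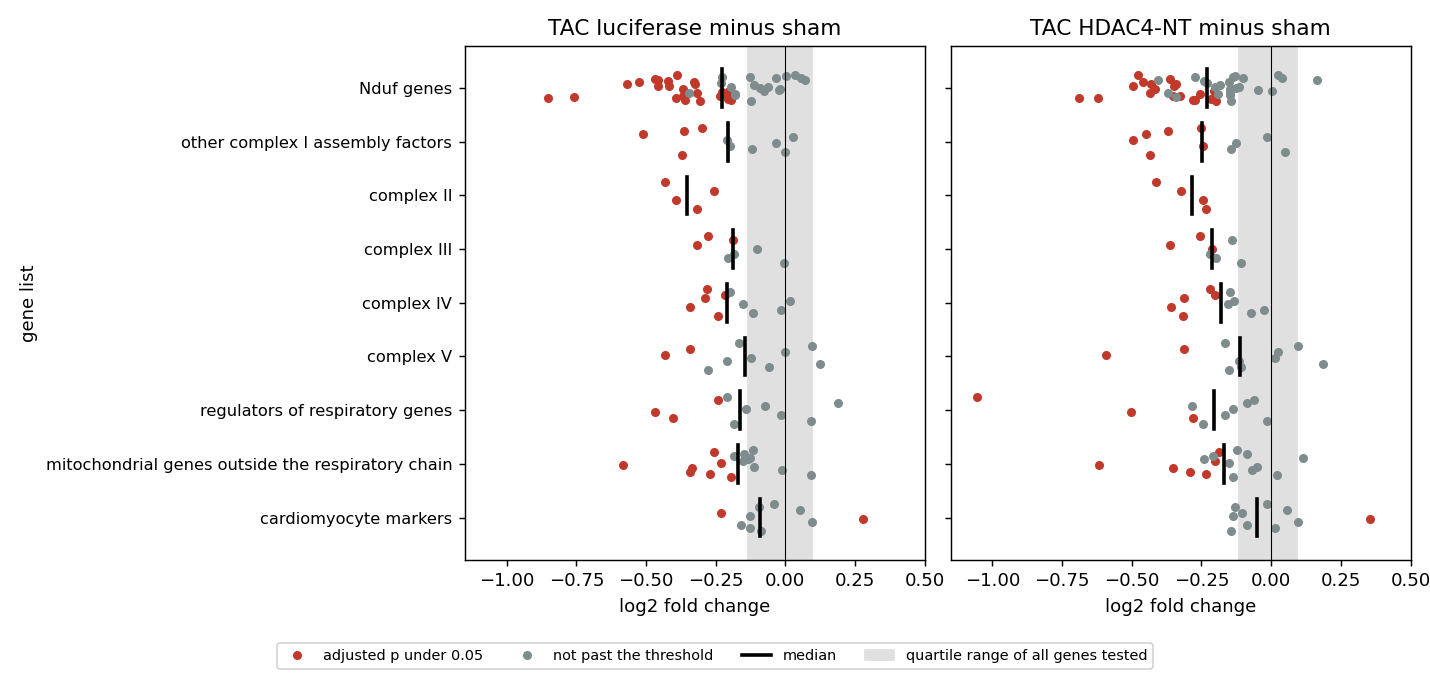
Log2 fold change against sham (horizontal axis) of each gene in the Nduf set and 8 other gene lists (vertical axis), for the TAC-luciferase hearts (left) and the TAC-HDAC4-NT hearts (right), 3 hearts per group. Red points passed an adjusted p of 0.05, black bars are medians, and the grey band is the quartile range of all 12597 genes tested; the median of the Nduf genes is -0.23 in both panels.

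Of 10 regulators of respiratory genes, 3 fell and 0 rose in each TAC group, where 14.9% and 12.3% of all genes were called lower. Esrrg and Gabpa fell in both, Ppargc1b only in TAC-luciferase and Ppargc1a only in TAC-HDAC4-NT. Ppargc1b stood at -0.24 (limma adjusted p 0.0465), with TAC-luciferase hearts that overlapped sham, and at -0.06 in TAC-HDAC4-NT. Esrrg, an oestrogen-related receptor, read 8.04, 8.01 and 8.00 in sham, 7.36, 7.63 and 7.65 in TAC-luciferase and 7.52, 7.40 and 7.62 in TAC-HDAC4-NT. It fell by 0.47 (SE 0.09, adjusted p 0.00389) and by 0.50 (SE 0.09, adjusted p 0.00296), with no overlap with sham. Gabpa, the DNA-binding part of GABP, fell by 0.40 (adjusted p 0.00758) and 0.28 (adjusted p 0.0409), the second a call lost without any 1 sham or HDAC4-NT heart (adjusted p up to 0.126). Other factors of the motifs searched were not called in either TAC group. Nrf1 stood at -0.01 (adjusted p 0.899) in TAC-luciferase and -0.17 (adjusted p 0.0811) in TAC-HDAC4-NT. Yy1 stood at 0.09 (adjusted p 0.367) and -0.01 (adjusted p 0.921), and Esrra, an oestrogen-related receptor, at -0.07 (adjusted p 0.711) and -0.28 (adjusted p 0.117). Ppargc1a, a coactivator of respiratory genes that was singled out after its values were seen, read 10.33, 10.26 and 10.62 in sham, 9.56, 10.46 and 10.56 in TAC-luciferase and 9.31, 9.19 and 9.54 in TAC-HDAC4-NT. TAC-luciferase heart 1 lay near the HDAC4-NT hearts and hearts 2 and 3 near the sham hearts. Its change was -0.21 in TAC-luciferase (SE 0.24, adjusted p 0.587), which became 0.11 without heart 1, and -1.05 in TAC-HDAC4-NT (SE 0.24, adjusted p 0.0109). The difference between the TAC groups was -0.85 (SE 0.24, adjusted p 0.142) and did not pass. With 1 array left out it ran from -1.16 without TAC-luciferase heart 1 to -0.66 without TAC-luciferase heart 3. It passed only without TAC-luciferase heart 1 (adjusted p 0.00165) and with array weights, and the adjusted p reached 0.402 when another array was left out.

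Of 16 mitochondrial genes outside the respiratory chain, 7 fell in TAC-luciferase hearts (median -0.17) and 6 in HDAC4-NT hearts (median -0.17), and 0 rose in either. Hspd1, a mitochondrial chaperonin, fell by 0.58 (adjusted p 0.000559) and 0.62 (adjusted p 0.000438). Opa1, which fuses inner membranes, fell by 0.34 (adjusted p 0.000943) and 0.29 (adjusted p 0.00242).

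In whole hearts, fewer cells of a type and less RNA per cell cannot be told apart. Of the 10 cardiomyocyte markers, 1 fell (Myh6 at -0.23, adjusted p 0.0271) and 1 rose (Mybpc3 at 0.28, adjusted p 0.0475) in TAC-luciferase hearts, with a median of -0.09 and summed log2 levels of 129.74 to 130.59 in sham and 129.57 to 130.1 in TAC-luciferase. Neither call held throughout: that of Myh6 ended for 4 of the 9 arrays when each was dropped in turn (adjusted p up to 0.095) and under 3 other settings (up to 0.102), and that of Mybpc3 for 7 arrays (up to 0.119) and under 4 other settings (up to 0.0935). Actc1, another of the cardiomyocyte markers, read 14.11, the highest value of the table, in every TAC heart, so it could not show a further rise. Among the 8 fibroblast markers 6 rose and 0 fell in each TAC group, with summed levels of 62.7 to 63.6 in sham, 71.7 to 72.9 in TAC-luciferase and 73.4 to 73.9 in TAC-HDAC4-NT. Postn, a matrix protein of activated fibroblasts, rose by 3.39 (adjusted p 1.09e-06) and 3.72 (adjusted p 4.66e-07), and Col1a1 by 1.44 (adjusted p 2e-05) and 1.62 (adjusted p 1.06e-05). The 7 macrophage markers had 2 higher in TAC-luciferase (summed levels 49.4 to 50.1 in sham and 51.7 to 53.1 after TAC) and 4 higher in TAC-HDAC4-NT (52.0 to 52.8). C1qa, a complement gene of macrophages, rose by 0.87 (adjusted p 0.00103) and 0.61 (adjusted p 0.00693), and Adgre1 by 0.51 (adjusted p 0.00448) and 0.55 (adjusted p 0.00349). Of the 6 endothelial markers, 1 rose and 2 fell in TAC-luciferase hearts and 1 rose in HDAC4-NT hearts, with summed levels of 55.3 to 55.8 in sham, 53.6 to 55.4 in TAC-luciferase and 56.1 to 56.5 in TAC-HDAC4-NT. The falls were those of Kdr at -0.68 (adjusted p 0.0144) and Tie1 at -0.22 (adjusted p 0.0129), both endothelial receptors. The call of Kdr ended when sham heart 1 was dropped (adjusted p 0.0565) and that of Tie1 when TAC-luciferase heart 2 was (adjusted p 0.0504). The rise was that of Cdh5, the cadherin of endothelial junctions, at 0.23 (adjusted p 0.0295; up to 0.102 with 1 array dropped) and 0.31 (adjusted p 0.00829). Of the 6 smooth muscle and pericyte markers tested, 1 rose and 0 fell in TAC-luciferase hearts, and 2 rose and 1 fell in HDAC4-NT hearts. Levels summed over all 7 of these markers, tested or not, were 56.3 to 56.8 in sham, 56.8 to 57.5 in TAC-luciferase and 58.0 to 58.3 in TAC-HDAC4-NT. Cspg4, a pericyte proteoglycan, rose by 0.39 (adjusted p 0.00422) and 0.82 (adjusted p 8.91e-05), Pdgfrb, a pericyte receptor, rose in HDAC4-NT hearts by 0.63 (adjusted p 0.000379), and Myh11, smooth muscle myosin, stood there at -0.24 (adjusted p 0.0443; up to 0.158 with 1 array dropped). Among the brown adipocyte markers 0 of 3 tested were called in TAC-luciferase, and Fabp4, a fatty acid carrier that endothelial cells also make, stood at 0.14 (adjusted p 0.363) and 0.35 (adjusted p 0.0363; up to 0.115 with 1 array dropped). The part of these changes in the lower Nduf levels was not tested.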

How the data were processed

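Per the labels' protocols, total heart RNA (Trizol) was turned into biotinylated cRNA for Affymetrix arrays. The authors deposited log2 values computed by RMA, per the submitters' processing notes. The sources used here do not give its version, the design of the probe sets or the build. Sorted values were the same on all 9 arrays, which is what quantile normalization produces, and RMA understates changes of dim genes. Arrays have no read depth, so precision is limited by their number.

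Of 21225 probe sets, 20239 had 1 gene symbol in the platform annotation, each gene with 1 probe set, and 986 were unnamed here. All 20239 matched the RefSeq table by gene ID, with 0 symbols changed. A gene was kept if 3 or more of its 9 values exceeded the 40th percentile of the table (5.66), and 7642 were removed. R 4.3.3 with limma 3.58.1 fitted one model to the 3 groups (lmFit, contrasts.fit and eBayes, on 6 residual plus 3.23 prior degrees of freedom), with Benjamini-Hochberg adjustment over 12597 genes. The script was tested on simulated data. Python 3.11.15 and matplotlib 3.10.9 drew the figures.

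The members, lists, rules and alternatives were chosen with earlier results of these data known. Named were the 8 members with the largest falls in TAC-luciferase against sham, the 4 in TAC-HDAC4-NT against sham, the 4 with the smallest p between the TAC groups, Ndufa4, Ndufa4l2, every Ndufaf gene, and, of each other list, up to 2 called genes with the smallest p in TAC-luciferase against sham, or the 1 with the smallest p where none was called; further genes were named after their values were seen. Alternatives were no filter, a 60th percentile filter, a trended and robust prior, cyclic loess, array weights, a fit to 2 groups alone, a block on replicate number, a random block on the code number in the sample names, leaving out each array, and leaving out TAC-luciferase hearts 2 and 3.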

Additional observations from a re-analysis of the deposited data

How the results depend on the processing

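In TAC-luciferase against sham, the count of Nduf genes called lower (24) was 15 without the filter, 14 after cyclic loess scaling, 8 without TAC-luciferase hearts 2 and 3, and 14 to 22 when 1 array was left out. The count over all genes (3283) was 1926 without TAC-luciferase hearts 2 and 3. In TAC-HDAC4-NT against TAC-luciferase, 0 members were called under any alternative, while the count over all genes (32) was 10 without the filter, 103 with the stricter filter, 75 with a trended and robust prior, 827 with array weights, 106 with the replicate number as a block, 177 with the code number as a random block, 10 without TAC-luciferase hearts 2 and 3, and 1 to 697 when 1 array was left out. The random block had a consensus correlation of -0.113 over 5 code numbers, so hearts with the same number were not more alike on this measure. With only the arrays of those 2 groups limma called 0 genes, and 1868 had an unadjusted p under 0.05. The replicate block gave 17 lower members in each comparison with sham; the numbers were not taken to pair the hearts, since the correlations of same-numbered deviations ran from -0.123 to 0.199. Of the 43 members, 8 turned their sign under at least 1 alternative in TAC-luciferase against sham, 3 in TAC-HDAC4-NT against sham and 21 between the TAC groups, and 0 of these were called. Among the named genes in TAC-luciferase, Ndufaf2 ran from -0.20 to 0.010 when 1 array was left out, Ndufa2 from -0.12 to 0.051, Ppargc1a from -0.39 to 0.11, Mybphl from -0.19 to 0.23 and Actn3 from -0.00653 to 0.038. After cyclic loess scaling Ndufa2 stood at 0.0094, and without TAC-luciferase hearts 2 and 3, which leaves 1 heart whose spread is taken from the other groups, Ndufa4l2 stood at -0.073 and Mybphl at -0.21. In TAC-HDAC4-NT, Mybphl ran from -0.11 to 0.079, with 0.027 without HDAC4-NT heart 1. The causes were not tested.

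Of the 24 members called in TAC-luciferase, 12 kept their call without each array in turn and under the 8 other settings, namely Ndufv1, Ndufs1, Ndufs6, Ndufa3, Ndufa5, Ndufa6, Ndufa9, Ndufv3, Ndufb10, Ndufaf1, Ndufaf3 and Ndufaf4. Of the 19 called in TAC-HDAC4-NT, 13 did. Signal over background limits Ndufaf5 and other dim members.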
